A study of Mus musculus with 6 samples.

Results

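The AP-1 genes examined here were 4 of the FOS family (Fos, Fosb, Fosl1 and Fosl2), 3 of the JUN family (Jun, Junb and Jund) and Atf3 of the ATF/CREB family. They were found in the table of gene counts by symbol, and all 8 were among its 47069 genes. The libraries came from LβT2 cells, a mouse line with the features of pituitary gonadotropes, used at passage 14. Every culture had received gonadotropin-releasing hormone (GnRH) at 2 nM for 40 min. In 3 libraries the cells were fresh, and in 3 they had been kept in RNA-Best, a buffer that preserves intact cells, for 4 days or more at a temperature of 4 °C. Untreated cells were not analysed here, so all values are levels after GnRH and none is an induction. Separate cultures are not named for the libraries of a group, so the p-values measure the spread between libraries, which may be technical.

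AP-1 is a dimer of leucine zipper proteins that binds DNA at TGACTCA and related sites. JUN proteins pair with each other or with FOS proteins, whereas FOS proteins need a JUN partner, and ATF3 can pair with JUN proteins or with itself. Most of these genes belong to the immediate-early class, which factors already present in the cell switch on, and their mRNAs are short-lived. In gonadotropes GnRH acts through its receptor and MAP kinases on these genes, and AP-1 takes part in the regulation of Gnrhr and Fshb.

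The promoters of Fos, Jun and Atf3 are shown because they hold matches to sites on which bZIP factors can bind. They are the 150 bases upstream of the RefSeq start on GRCm38.p6, written 5′ to 3′ along the gene, with matches and the TATA sequence in capitals.
Fos, chr12:85473740-85473889, plus strand: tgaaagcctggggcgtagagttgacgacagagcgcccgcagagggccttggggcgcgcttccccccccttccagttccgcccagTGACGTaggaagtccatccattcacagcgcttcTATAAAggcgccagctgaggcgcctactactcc
Jun, chr4:95052223-95052372, minus strand: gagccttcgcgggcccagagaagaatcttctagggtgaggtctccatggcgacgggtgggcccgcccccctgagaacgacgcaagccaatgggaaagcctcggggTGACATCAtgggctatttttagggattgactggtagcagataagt
Atf3, chr1:191183334-191183483, minus strand: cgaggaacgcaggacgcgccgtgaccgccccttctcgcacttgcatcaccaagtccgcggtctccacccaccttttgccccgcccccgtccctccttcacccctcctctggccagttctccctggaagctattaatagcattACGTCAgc
The motifs were searched on both strands from 250 bases before to 50 after the start of 32851 promoters, with the base before the start counted as -1. Fos had TGACGT, the core of the cAMP response element, at -66 to -61 and TATAAA at -33 to -28. The core was found in 7.513% of all promoters and TATAAA in 13.616%. Jun had TGACATCA at -45 to -38, letters found in 3.619% of promoters. Atf3 had the core on the other strand at -8 to -3. The letters TGACTCA were in 5.202% of promoters, TGACGTCA (a site that includes the core) in 1.79% and the CArG box in 1.629%. None of these was in the windows of the 7 members with a RefSeq promoter. Bases outside the windows were not searched. The 150 bases before the RefSeq start of Jund are chr8:70697589-70697738. Its window does not reach the start of the Jund gene at chr8:70698949, given below.

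The short half-life of such mRNAs is linked in general to AU-rich elements of the 3′ UTR, whose simplest unit reads ATTTA in DNA letters. Each of the 8 genes had at least 1 such pentamer in its 3′ UTR, as did 68.3% of 19938 genes with a 3′ UTR of at least 100 bp. The 30 bases with the most pentamers are shown for the 3 members with a pair of them in that space, with the pentamers in capitals.
Fos, 3′ UTR bases 642 to 671: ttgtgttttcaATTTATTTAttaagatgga
Jun, 3′ UTR bases 1031 to 1060: atcATTTAtaatcataggaaagATTTAgta
Fosl2, 3′ UTR bases 3675 to 3704: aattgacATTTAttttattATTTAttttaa
Fos had 4 pentamers in 815 bp (4.91 per kb), and 7.75% of genes reached that density. Junb had 4.12 and Jun 3.24 pentamers per kb, whereas the median gene had 1.35. Fosl2 had the most pentamers of the 8 genes with 8, in a 3′ UTR of 4653 bp (1.72 per kb), and Fosb the lowest density with 0.43.

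The library totals ranged from 8773187, 4909418 and 11999363 counts in RNA-Best to 40535204, 47438746 and 14477304 in fresh cells, and every fresh library was deeper. Gonadotrope markers were present in every library. Cga, the common subunit of the pituitary glycoprotein hormones, lay between 1410 and 1830 counts per 1000000 of the library total (CPM), Nr5a1 between 372 and 439, and Lhb between 25.1 and 29.7. Fshb, the other hormone subunit of these cells, had 0 counts in all 6 libraries, where 3 counts would be 0.0632 to 0.611 CPM. The summed CPM of the 6 gonadotrope markers was 2540 to 2610 in the RNA-Best libraries against 3050 to 3090 in the fresh ones. Lower in every RNA-Best library were Cga (1410 to 1450 CPM against 1790 to 1830 in fresh), Nr5a1 (372 to 387 against 435 to 439) and Pitx1 (568 to 605 against 657 to 689). In contrast, Gnrhr was higher in RNA-Best (159 to 173 CPM) than in fresh libraries (109 to 125) and the ranges of Lhb overlapped. The part of these markers in the AP-1 results was not tested. Prl, Pou1f1, Sox2, Col3a1, Dcn and Ptprc had 0 counts throughout, and the sums were at most 2.28 CPM for 6 markers of other pituitary cells, 0.114 for 2 of stem and folliculostellate cells, 0.173 for 4 of connective tissue, 4.07 for 3 of immune cells and 0.104 for 2 of red cells. The 3 endothelial markers summed to 191 to 193 CPM in fresh and 196 to 209 in RNA-Best libraries, mostly from Cdh5, and their part was not tested either.

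After GnRH, Fos, Jun, Junb and Jund were the most abundant AP-1 mRNAs per kb of exonic length, and Fosl2 and Fosl1 the least. Mean levels over the 6 libraries were 91.3 CPM per kb for Fos, 81.5 for Jun, 79.5 for Junb and 68.4 for Jund. Atf3 followed at 27.4, Fosb at 25.4, Fosl2 at 8.41 and Fosl1 at 5.02. In fresh cells, the level of Fos exceeded that of 95.7% of the tested genes and the level of Fosl1 that of 43.8%. The ranges over libraries of Fos and Jun, Jun and Junb, Junb and Jund, and Atf3 and Fosb overlapped, and those of the other neighbours in this order did not. Fos was above Jun in 6 of 6 libraries and Junb above Jund in 6 of 6, whereas Jun was above Junb in only 3, all from RNA-Best. The order rests on gene models: per kb of the longest transcript, Junb came before Jun (81.5 CPM per kb) and Fosb (42.0) before Atf3 (29.7).

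The comparison of RNA-Best with fresh cells asked whether the AP-1 mRNA levels differed between the groups. By the paper's protocol, fresh cells were lysed directly and the lysate was stored frozen. RNA-Best cells were stored whole, spun down and then lysed. Buffer, storage, handling and depth thus cannot be told apart here. Fosl2 was higher in RNA-Best than in fresh libraries, Jun, Junb, Jund and Atf3 were lower, and Fos, Fosb and Fosl1 did not pass the test. By edgeR's quasi-likelihood test with Benjamini-Hochberg adjustment, 5 of 8 members passed a false discovery rate of 0.05, and 50.8% of the 14736 tested genes did so. Of the 5, 1 was higher (26.0% of tested genes) and 4 were lower (24.8%). The CPM of the groups did not overlap for 6 of 8 members, against 57.5% of tested genes. The largest change was 0.32 on the log2 scale, so 0 members reached 0.5, which 8.77% of tested genes did. The median log2 fold change was -0.14 over the members and -0.0074 over all tested genes. In these bulk samples, fewer cells with a transcript and less transcript per cell cannot be told apart.

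**Figure D1:**
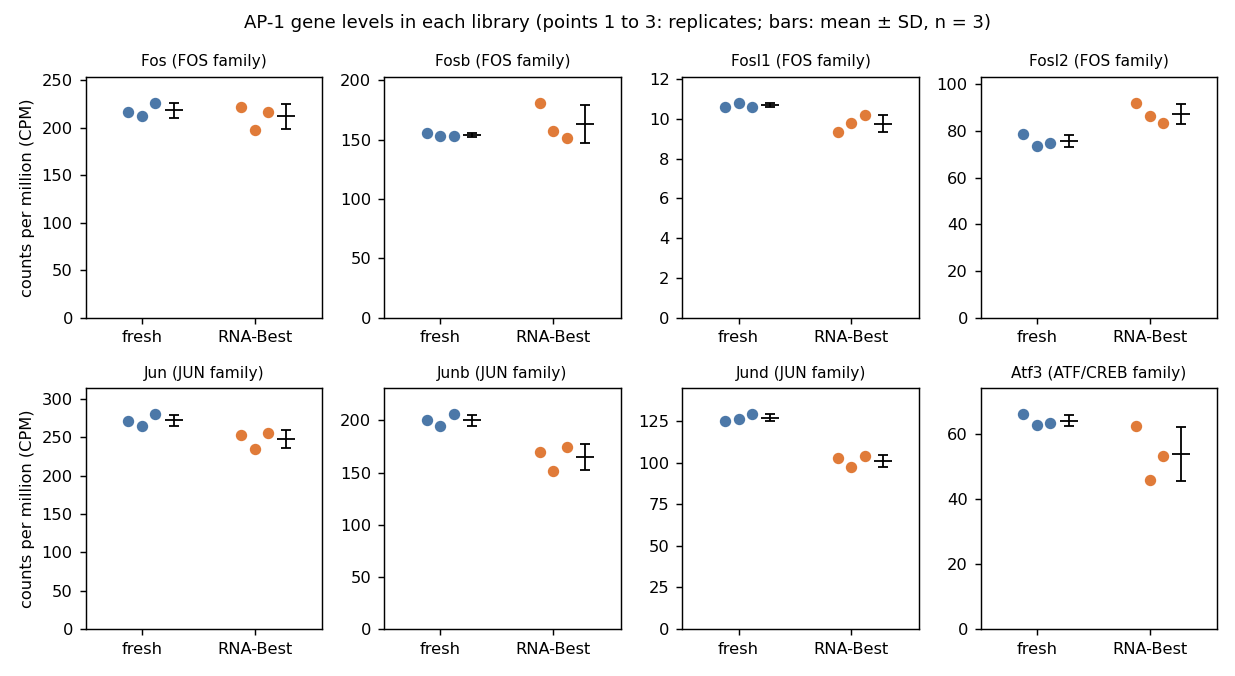
CPM (vertical axes from 0, a scale for each gene) of the 8 AP-1 genes in 3 fresh (blue) and 3 RNA-Best (orange) libraries, with the mean and SD of each group as black bars. The RNA-Best points of Junb and Jund lie below the fresh ones and those of Fosl2 above them, whereas those of Fos and Fosb overlap with fresh.

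In the FOS family, Fos is the founding member and the usual early partner of JUN. Its gene (ENSMUSG00000021250, GRCm38 chr12:85473890-85477273, plus strand) gave 216, 212 and 226 CPM from fresh cells and 222, 197 and 216 CPM from RNA-Best. RNA-Best 2 lay below the fresh range and the other RNA-Best libraries within it. The log2 fold change was -0.04 ± 0.035 (SE; 95% confidence interval -0.11 to 0.03; edgeR adjusted p = 0.389), which is 0.928 to 1.02 times the fresh level. Without the filter on low counts it was -0.08 (edgeR adjusted p = 0.0399).

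Fosb encodes a FOS protein that also exists as a truncated splice form, ΔFosB, and the counts per gene do not separate the forms. The gene lies at chr7:19302696-19310051 on the minus strand. Its CPM were 156, 153 and 153 in fresh and 181, 157 and 151 in RNA-Best libraries. RNA-Best 1 stood above all other libraries and the groups overlapped. The log2 fold change of 0.06 ± 0.041 (95% confidence interval -0.02 to 0.15; edgeR adjusted p = 0.195) rested on single libraries. It was -0.02 without RNA-Best 1, and 0.14 without RNA-Best 3, where it passed the test (edgeR adjusted p = 0.011).

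Fosl2 (Fra-2) and Fosl1 (Fra-1) lack the transactivation domain at the C-terminus that FOS and FOSB have, and the protein of Fosl1 is known to appear late after a signal. They lie at chr5:32135801-32157842 and chr19:5447547-5455946, both on the plus strand. Fosl2 had 78.5, 73.6 and 74.7 CPM in fresh and 92.0, 86.4 and 83.3 CPM in RNA-Best libraries. All 3 RNA-Best values were above the fresh values, with a log2 fold change of 0.19 ± 0.043 (95% confidence interval 0.10 to 0.27; edgeR adjusted p = 0.000418), a level 1.14 times that of fresh cells. Fosl1 had 10.6, 10.8 and 10.6 CPM in fresh and 9.35, 9.78 and 10.2 CPM in RNA-Best libraries. Its RNA-Best values were all lower, but it had only 48 to 122 counts in these libraries, and the log2 fold change of -0.14 ± 0.095 (95% confidence interval -0.33 to 0.06; edgeR adjusted p = 0.252) did not pass the test. It was -0.355 after thinning to the smallest library (edgeR adjusted p = 0.0841) and -0.03 with the GC offset. Fosl1 shares 1163 bp of exons with Ccdc85b on the opposite strand, which fell by 0.35 on the log2 scale (edgeR adjusted p = 8.96e-05). The strand setting of the counting is not given in the sources used here, so reads of the overlap cannot be assigned to one gene.

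In the JUN family, Jun encodes a strong activator and can act on its own promoter. It is a single-exon gene (chr4:95049034-95052222, minus strand) with 271, 265 and 280 CPM from fresh cells and 253, 235 and 256 CPM from RNA-Best. The RNA-Best values were all below the fresh ones. Its log2 fold change was -0.13 ± 0.032 (95% confidence interval -0.20 to -0.07; edgeR adjusted p = 0.000629), a level 0.911 times that of fresh cells. The antisense gene Junos, which overlaps 232 bp of Jun, was at 0.197 to 0.553 CPM in the 6 libraries.

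JUNB is a weaker activator that can oppose JUN, and JUND is the JUN protein that resting cells already hold. Their genes lie at chr8:84974484-84978718 (Junb, minus strand) and chr8:70698949-70700616 (Jund, plus strand). Junb had 200, 195 and 206 CPM in fresh and 170, 152 and 175 CPM in RNA-Best libraries. Jund had 125, 126 and 129 CPM in fresh and 103, 97.3 and 104 CPM in RNA-Best libraries. Both genes were lower in each RNA-Best library than in any fresh one, by log2 fold changes of -0.27 ± 0.036 for Junb (edgeR adjusted p = 1.35e-07) and -0.32 ± 0.037 for Jund (edgeR adjusted p = 3.89e-09). The levels were 0.832 times (95% confidence interval 0.791 to 0.875) and 0.801 times (0.760 to 0.843) those of fresh cells. Junb shares 173 bp of exons with Prdx2, a peroxiredoxin gene on the opposite strand with 306 to 396 CPM. Prdx2 fell by 0.30 on the log2 scale (edgeR adjusted p = 2.31e-10). As for Fosl1, the strand setting is not given, so reads of this overlap cannot be assigned to either gene. Gm11175, which overlaps 877 bp of Jund, had 0 counts in every library.

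ATF3 is a stress-inducible factor that represses transcription as a homodimer. Its gene lies at chr1:191170296-191218039 on the minus strand. Atf3 had 66.1, 62.9 and 63.3 CPM from fresh cells and 62.6, 46.0 and 53.2 CPM from RNA-Best. The groups did not overlap, but RNA-Best 1 lay just below the lowest fresh library. The log2 fold change was -0.24 ± 0.055 (95% confidence interval -0.35 to -0.13; edgeR adjusted p = 0.000423). It lay between -0.35 and -0.18 when single libraries were left out, and the test was passed in 6 of 6 such fits.

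The spread among libraries of a group was small and larger in RNA-Best for each of the 8 genes. The coefficient of variation of CPM was between 0.976% (Fosl1) and 3.43% (Fos) in fresh libraries, and between 3.57% (Jund) and 15.4% (Atf3) in RNA-Best libraries. In 12 of 16 pairs of gene and group it exceeded the value that counting alone gives. It did so by more than 2 times in 6 of them. Among these, Atf3 in RNA-Best had 15.4% against a counting value of 5.10%, and Fosb in RNA-Best had 9.90% against 2.88%. The RNA-Best libraries were shallower, and the counting value of each gene was larger there than in fresh cells.

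The order of the changes broadly followed the exonic length of the genes. Jund, the shortest with 1668 bp, had the lowest log2 fold change, and Fosl2, the longest with 9680 bp, the highest. Across the 8 genes, Spearman's rho between length and log2 fold change was 0.881, and across 14677 tested genes with a length it was 0.523. These are descriptions across genes of the same 6 libraries, not across replicates. The tested genes were put into 5 bins by length. Their median log2 fold change was -0.21 in the shortest bin (up to 1750 bp), which holds Jund, and -0.12 in the next (1751 to 3177 bp), which holds Fos, Fosl1, Junb and Atf3. It was -0.03 in the middle bin with Jun, 0.08 in the bin with Fosb and 0.24 in the longest bin with Fosl2.

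**Figure D2:**
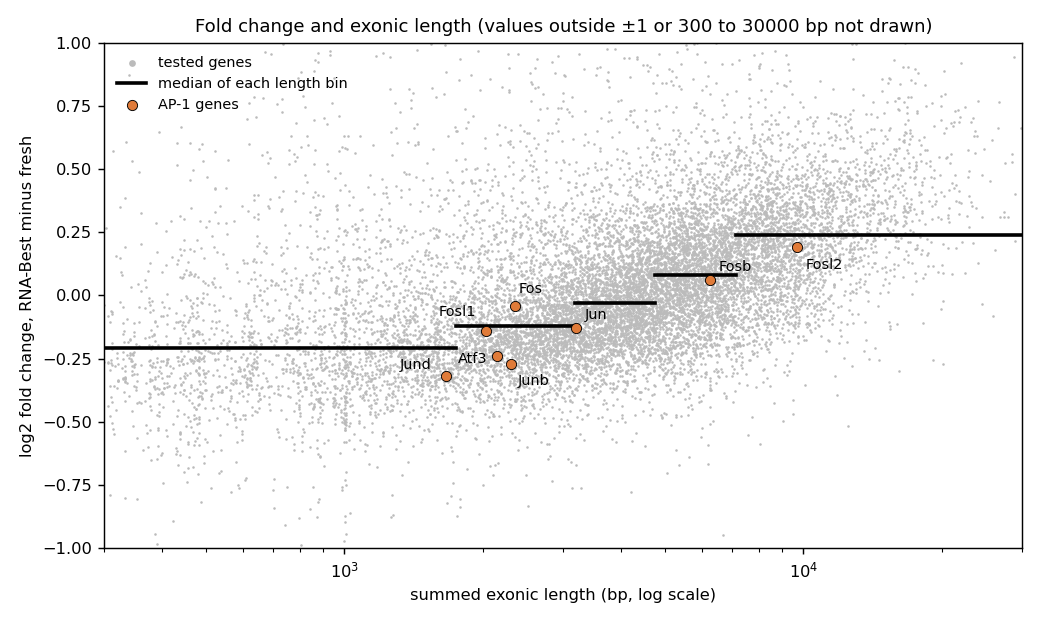
Log2 fold change of RNA-Best against fresh (vertical axis) and summed exonic length in bp (horizontal log axis) of the tested genes (grey), with the 8 AP-1 genes in orange and the median of each of 5 length bins as a black line. Fos lies above the median of its bin and the other 7 genes below theirs, with Fosl1, Fosb and Fosl2 nearest to it.

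An edgeR fit with an offset for exonic length in each library measured the members against genes of like length. It called 3 of 8 members, with 38.1% of all genes called. Junb was still lower at -0.12 (95% confidence interval -0.19 to -0.05; edgeR adjusted p = 0.00492), and Jund at -0.14 (-0.22 to -0.07; edgeR adjusted p = 0.00141). Fos was higher at 0.10 (0.03 to 0.17; edgeR adjusted p = 0.0145), the opposite sign of its value without the offset. The other 5 genes were not called, with Jun at -0.05, Atf3 at -0.09, Fosb and Fosl2 at -0.04 and Fosl1 at 0.02. The rise of Fosl2 and the falls of Jun and Atf3 thus did not pass the test relative to genes of their length.

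An offset for GC content called 5 of 8 members, against 47.9% of all genes, but not the same 5. Fosb was called higher at 0.15 (edgeR adjusted p = 0.00116), and Jun was not called at -0.05 (edgeR adjusted p = 0.189). Junb and Jund, whose longest transcripts had 62.6% and 67.1% GC, the highest of the 8 genes, were called at -0.13 and -0.20. Fosl2 was at 0.23 and Atf3 at -0.21. Junb and Jund were thus called lower in all 18 alternative fits, Fosl2 higher and Atf3 lower in 16, and Jun lower in 15.

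**Figure D3:**
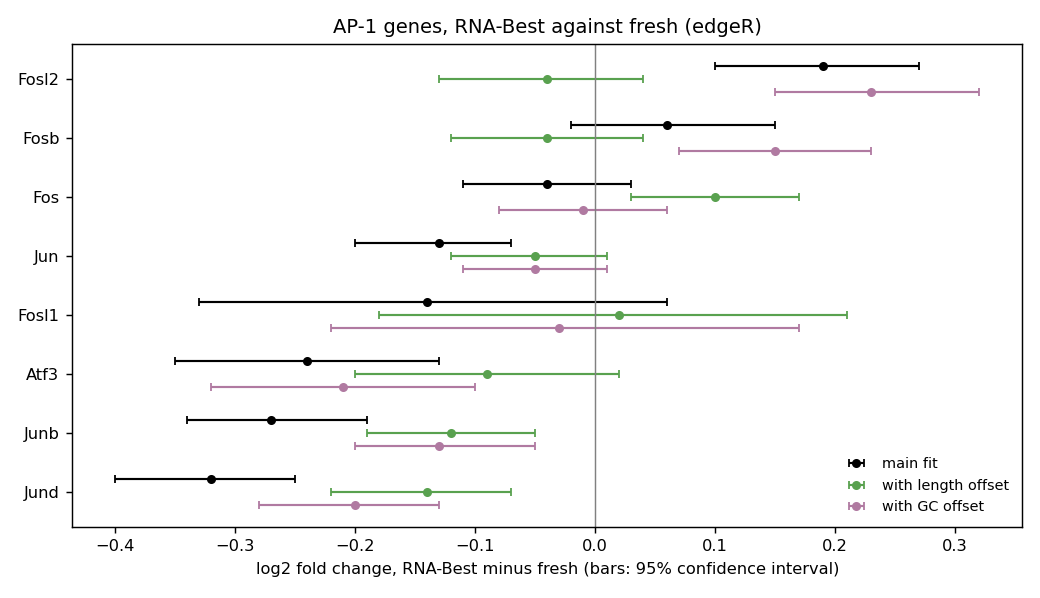
Log2 fold change of RNA-Best against fresh (horizontal axis; dots with 95% confidence intervals) of the 8 AP-1 genes by edgeR, without an offset (black), with an offset for exonic length (green) and with one for GC content (purple). The intervals of Junb and Jund lie below 0 in all 3 fits, and that of Fosl2 includes 0 with the length offset.

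The ratio of FOS to JUN transcripts was higher in RNA-Best libraries, with like FOS sums and lower JUN sums. The 4 FOS genes summed to 130 ± 3.09 CPM per kb (SD, n = 3) in the fresh libraries and 130 ± 7.52 in RNA-Best. The 3 JUN genes summed to 248 ± 5.78 in the fresh libraries and 210 ± 11.0 in RNA-Best. The ratio of FOS to JUN was 0.527, 0.524 and 0.525 for fresh cells and 0.639, 0.619 and 0.595 for RNA-Best. The groups did not overlap, and the means differed by 0.233 on the log2 scale. It is a description without a test, since the members were chosen with earlier results known, and the length pattern given above applies to these sums as well.

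Fos made up 22.7% ± 0.302 of the 8 genes' summed CPM per kb of fresh cells and 24.6% ± 0.125 of that after RNA-Best. The share of Fosb was 6.05% ± 0.151 without storage and 7.15% ± 0.583 after it, and that of Fosl2 1.91% ± 0.0721 and 2.47% ± 0.153. All 3 shares were larger in each RNA-Best library than in any fresh library. Junb went from 21.3% ± 0.0805 to 19.7% ± 0.600 and Jund from 18.6% ± 0.242 to 16.7% ± 0.414, without overlap. The shares of Jun (20.9% ± 0.135 and 21.3% ± 0.441), Atf3 (7.29% ± 0.242 and 6.83% ± 0.701) and Fosl1 (1.28% ± 0.0399 and 1.32% ± 0.104) overlapped between the groups.

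**Figure D4:**
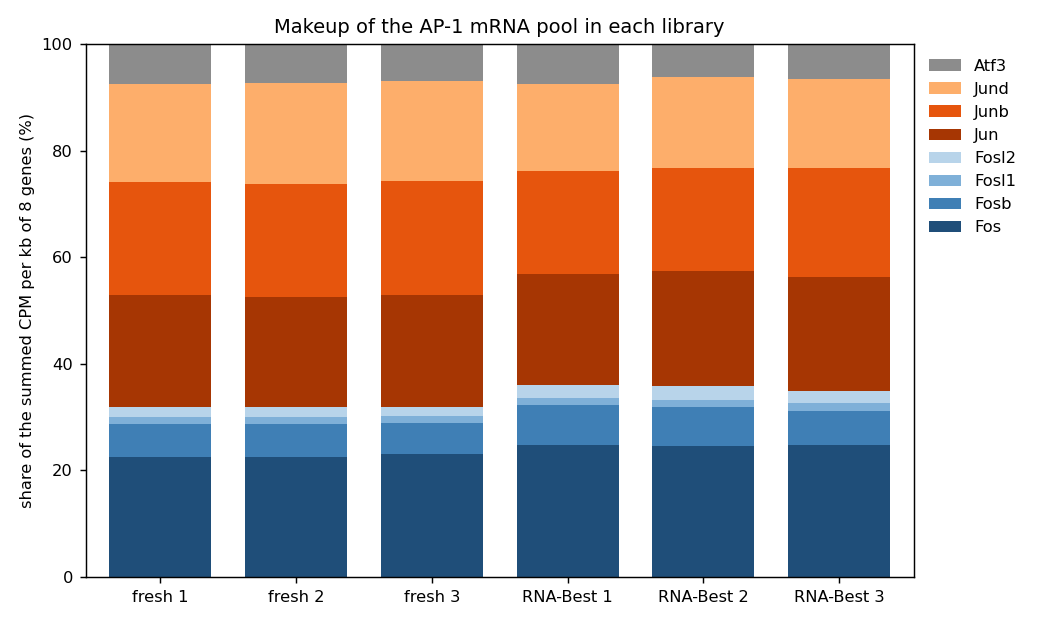
Share of each AP-1 gene in the summed CPM per kb of the 8 genes (vertical axis, %) in the 6 libraries, with FOS genes in blue, JUN genes in orange and Atf3 in grey. The blue part is larger in the 3 RNA-Best bars, and Junb and Jund are smaller there.

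The genes most like Fos over the 6 libraries, by Pearson's r of log2(CPM + 1) among 10191 tested genes with a mean of at least 10 CPM, were BC030867 (r = 0.9883), Slc4a1ap (0.9817) and 1810026B05Rik (0.9793). Their log2 fold changes were each -0.03, near the -0.04 of Fos. Those most like Jun were Cyp4f16 (r = 0.9980), Gm10110 (0.9938) and Triap1 (0.9937), with log2 fold changes of -0.14, -0.15 and -0.28. They are the highest of many values over few libraries that share depth and storage, and no p is given.

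Genes around AP-1 in the pathway were taken from 5 lists, of which 81 genes were tested. Of these, 47 passed the test, 29 higher and 18 lower in RNA-Best. Among other bZIP factors, many of them possible AP-1 partners, 9 of 27 tested genes rose and 7 fell, with a median log2 fold change of -0.01. Atf7 rose from 38.6 ± 1.47 to 51.8 ± 0.816 CPM (log2 fold change 0.40, edgeR adjusted p = 2.59e-08), and Creb1, which binds the cAMP response element, rose by 0.31. Creb3 fell by 0.39 and Maff, a small Maf protein gene, fell by 0.27. With the length offset 7 genes were called in place of 16, and Creb1 stood at -0.02 and Maff at -0.15, neither called, while Atf7 was called at 0.13. With the GC offset Creb1 was at 0.17 and Maff, at -0.17, was not called.

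Of the 22 kinases upstream of AP-1, 10 rose and 5 fell (median 0.06). Gsk3b, whose kinase phosphorylates JUN and lowers its binding to DNA, rose from 166 ± 1.93 to 219 ± 6.67 CPM (0.37, edgeR adjusted p = 3.42e-12), and Rps6ka5 (MSK1) rose by 0.42. Map2k2 (MEK2), which activates ERK, fell by 0.26 and Map2k3 fell by 0.19. With the length offset 7 were higher and 6 lower (median -0.02). Rps6ka5 was then not called at 0.13, and Gsk3b was called at 0.14 and Map2k3 at -0.12. Map2k2 was at -0.33 with the length offset and at -0.13 with the GC offset. With the GC offset Map2k3 was at -0.12.

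Of the 13 factors that act on early gene promoters, 6 rose and 2 fell (median 0.08). Ep300, a histone acetyltransferase, rose from 93.5 ± 6.27 to 142 ± 2.40 CPM (0.58, edgeR adjusted p = 2.70e-14) and Mrtfb, an SRF cofactor, rose by 0.44. Srf, which binds CArG boxes, fell by 0.14. The length offset left 2 higher (Ep300 at 0.24 and Mrtfb at 0.23) and 2 lower (median -0.02), and Srf was not called at -0.04 nor with the GC offset (edgeR adjusted p = 0.915).

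Of 11 tested genes for the turnover of AP-1 mRNA and protein, 3 rose and 1 fell (median 0.06). Cnot1, the scaffold of the CCR4-NOT deadenylase, rose from 133 ± 3.97 to 175 ± 4.55 CPM (0.38, edgeR adjusted p = 9.99e-12) and Fbxw7, which targets JUN for degradation, rose by 0.24. Elavl1 (HuR), which stabilises AU-rich mRNAs, fell by 0.15. Zfp36, whose protein binds ATTTA-type elements and speeds decay, was at 72.6 ± 1.54 in fresh and 68.4 ± 6.01 CPM in RNA-Best libraries (edgeR adjusted p = 0.212). With the length offset the balance turned round, with 1 higher and 3 lower (median -0.01). Cnot1 was then at -0.01 and not called, and Elavl1 was lower at -0.39 (-0.23 with the GC offset). Fbxw7 was not called with the length offset (edgeR adjusted p = 0.26), the GC offset (0.0529) or without the library RNA-Best 3 (0.173).

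Only 9 of 18 listed AP-1 target genes passed the filter on low counts, and Fshb, Mmp3 and Mmp10 had 0 counts throughout. Of the 9, 2 rose and 3 fell (median -0.10). Gnrhr, the GnRH receptor gene, rose from 119 ± 8.73 to 164 ± 7.72 CPM (0.43, edgeR adjusted p = 5.66e-11) and Vegfa rose by 0.28, and with the length offset they were at 0.51 and 0.29. Timp1, an inhibitor of metalloproteinases, fell from 54.5 ± 1.58 to 43.1 ± 1.83 CPM (-0.34, edgeR adjusted p = 5.86e-07), and was at -0.13 with the length offset (edgeR adjusted p = 0.0293). Tgfb1 fell by 0.23, and its call was lost without fresh 2 or without RNA-Best 3 (edgeR adjusted p of up to 0.247), with a value of -0.14 in the latter fit. The shares called in the 5 lists lay between 36.4% and 68.2% of tested genes, around the 50.8% of all genes.

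**Figure D5:**
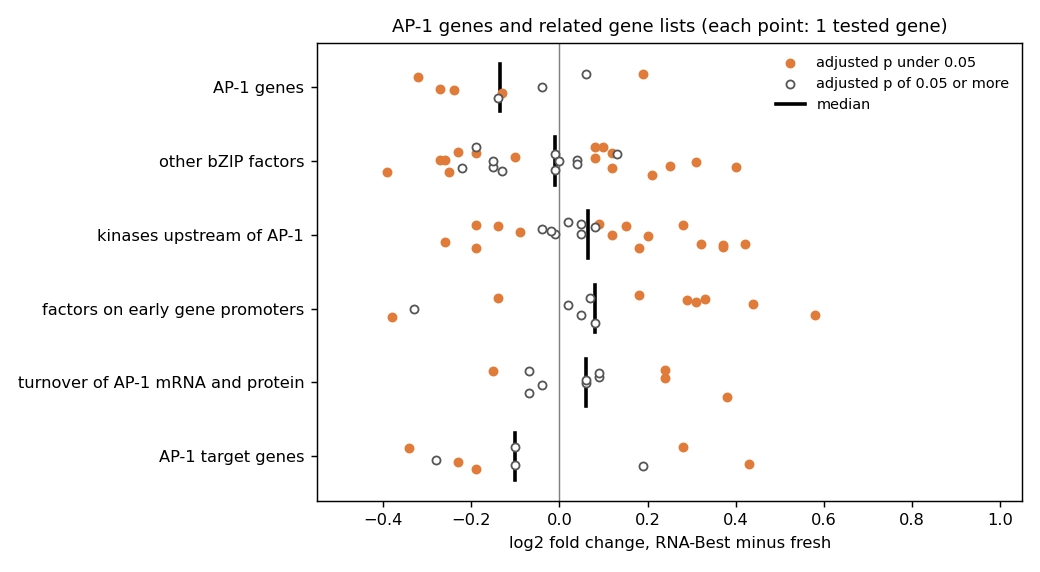
Log2 fold change of RNA-Best against fresh (horizontal axis) of the tested genes of each list, with orange points past an edgeR adjusted p of 0.05, open points not, and a black line at the median. The medians lie between -0.14 (AP-1 genes) and 0.08 (factors on early gene promoters).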

How the data were processed

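Bulk mRNA libraries (TruSeq, single reads) of GnRH-treated LβT2 cells were analysed, 3 fresh and 3 RNA-Best. The authors aligned reads to GRCm38 (mm10, GENCODE M8) with STAR 2.5.1b and counted them with featureCounts 1.5.0-p1. The authors deposited estimated counts, unscaled, for each gene. They hold parts of counts, and among the members these occur in Fos, Fosb and Jund, at most 0.014% of the gene's largest count. Per-sample columns without a sample were 0.

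Counts were rounded and fitted in R 4.3.3 with edgeR 4.0.16 (TMM, filterByExpr with a minimum count of 10, quasi-likelihood test, Benjamini-Hochberg adjustment over 14736 genes). DESeq2 1.42.0 and limma 3.58.1 (voom) served as alternatives. CPM used column totals. Exonic lengths came from GENCODE M21 on the same assembly, which matched 46488 genes, and offsets were loess fits (span 0.5). The fit was checked on counts simulated from its own means and dispersions. These held no length or GC trend, so the check does not cover such a trend. Totals of 4909418 to 47438746 counts set the precision, and floors of 3 counts cover counting error only.

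Members, lists, markers and tests were chosen with earlier results of these data known. Named were the members, the 2 highest and 2 lowest called log2 fold changes of each list, markers, and the 3 genes most like Fos and Jun. Zfp36 was named after its values were seen, and a gene that this rule names is not reported here. Sums and shares over members have no test here, although one was planned. Scaling, filter, test, replicate block, offsets, thinning, rounding and single libraries were varied.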

Additional observations from a re-analysis of the deposited data

How the results depend on the processing

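Of 8 members, 5 were called, and of all 14736 tested genes 7479. The count was 3 members with the length offset (5614 of all genes). It was also 3 with the replicate block and length offset together (5621 of all genes), and 2 members were lower in each of these fits. The calls higher in RNA-Best were 2 with the GC offset and 1 to 2 when single libraries were left out, and 31 listed genes were called with the replicate block and length offset in place of 47. Under the length offset without and with the replicate block, the log2 fold change reversed to 0.101 and 0.0895 for Fos, -0.0377 and -0.0323 for Fosb, 0.0172 and 0.0205 for Fosl1, and -0.0422 and -0.0425 for Fosl2. Leaving out single libraries, Fosb ranged from -0.025 to 0.138. The difference in the share of Fosl1 (0.0339 percentage points) was -0.00957 without length, -0.156 after thinning and -0.0108 to 0.0907 without single libraries, and that of Jun (0.393) was -0.424 without length. Leaving out RNA-Best 1 or RNA-Best 2, the difference was 0.647 or 0.26 for the share of Jun and -0.85 or -0.172 for that of Atf3 (-0.459), which was -0.233 after thinning. Without length, the differences in share also moved from 1.95 to 0.918 for Fos, 1.10 to 1.91 for Fosb and 0.557 to 1.65 for Fosl2, and after thinning from -1.63 to -0.703 for Junb and -1.95 to -2.76 for Jund. The difference of the FOS to JUN ratio kept its direction in all 11 alternatives run. None of these applied the length offset. As the ratios of the groups did not overlap, leaving out a single library could not reverse the direction. The cause of these changes was not tested. Same-numbered libraries did not deviate together (correlations of -0.00844, 0.0121 and -0.0077), which gives no sign that the numbers mark pairs, and the replicate block alone called 7472 genes against 7479 and the same 5 members. Fosl1 had the fewest counts, 48 in the smallest library.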
